A study of Mus musculus with 38 samples.

Results

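Zbtb16, the gene for the transcription factor PLZF, was followed across RNA-seq libraries of the adBNST, the anterodorsal BNST (bed nucleus of the stria terminalis), a forebrain area linked to anxiety and hormonal stress responses. It is 1 of 25230 genes in the deposited count table and was matched by its symbol. Zbtb16 was chosen by its measured values in these libraries, among them its difference between stressed and control females. Its levels and group differences are therefore given as a description, and nothing is supported with them.

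The 38 libraries came from adBNST microdissections of WT mice. There were 9 libraries of stressed females, 10 of control females, 9 of stressed males and 10 of control males. Stressed mice went through chronic variable mild stress for 6 weeks, a random sequence of stressors such as changed lighting, cold, wet bedding, swimming, isolation and restraint; the labels give no age, strain or number of animals per library. As no library's animal is named, SDs give the spread between libraries. SEs and p-values take libraries, not known animals, as the separate samples. In dissected tissue, fewer cells of a type and less RNA per cell cannot be told apart.

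PLZF belongs to the BTB zinc-finger family, proteins that pair through a BTB domain and bind DNA through C-terminal zinc fingers. It acts mainly as a repressor by recruiting histone deacetylases through corepressors, and it is known for its part in limb patterning, in the renewal of spermatogonial stem cells, in natural killer T cell development and, as a fusion with RARA, in leukaemia. Glucocorticoids, the steroid hormones that the stress axis releases, bind the glucocorticoid receptor, which enters the nucleus and switches on target genes. Zbtb16 is one of the genes that many tissues induce on glucocorticoid exposure, along with Fkbp5, Tsc22d3, Sgk1 and Per1.

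In GENCODE M21 on GRCm38, the assembly that mm10 names, Zbtb16 lies on the minus strand of chromosome 9 at chr9:48654297-48836222. Its 2 annotated transcripts have 7 exons each and begin at different first exons. Its exons cover 5283 bases, and 0 other annotated genes overlap it on either strand. The counts cannot tell the transcripts apart.

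Total counts ran from 14.6 to 35.3 M in stressed females, 18.1 to 33.8 M in control females, 15.9 to 36.1 M in stressed males and 9.1 to 84.8 M in control males. Levels are given as CPM, counts scaled to each library's effective size. The labelled region was checked by a list of 10 GABA and BNST neuron markers, all of which were tested, with summed levels from 1547 to 2688 CPM in the 38 libraries, against 7.23 to 40.7 CPM for 6 cortical markers. Most of that sum was Gad1, Gad2 and Slc32a1, which striatum shares, and summed striatal markers ran from 759 to 4778 CPM. Libraries numbered 1 to 5 and those numbered 6 and above differed for many transcripts, as with Rps29 at means of 266 and 44.8 CPM, so group differences are also given within each number set. On the first principal component (29.6% of the variance) 5 libraries stood apart, female stressed 1 and 2, female control 1 and 6 and male control 3, with summed oligodendrocyte markers of 20714 to 26069 CPM against 4643 to 16487 CPM in the other 33. They held 10.4 to 45.7 CPM of Zbtb16, and results are given with and without them. Male stressed library 5 held choroid plexus transcripts, and its Zbtb16 stood at 19.1 CPM.

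Zbtb16 was measured well above the counting limit in every library, from 122 to 3749 counts. Its mean over all libraries was 33.3 CPM, or 6.30 CPM per kb of exon. This level per length exceeded that of 55.8% of 16001 tested genes with a known length. Among the BTB zinc-finger family, 8 of 44 members stood above it per length and 36 below. Zbtb4, Zbtb7a and Zbtb18 were the highest, at 18.5, 15.6 and 12.8 CPM per kb.

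Zbtb16 was highest on average in control females and lowest in control males. Stressed females held from 12.6 to 43.5 CPM with a median of 27.3, against 10.4 to 115.7 CPM with a median of 43.8 in control females. Stressed males held from 15.8 to 50.3 CPM with a median of 28.0, against 13.8 to 39.96 CPM with a median of 19.4 in control males. The ranges overlapped in both sexes. None of the 9 stressed females exceeded the control female median, while 7 of the 9 stressed males exceeded the control male median. In females 5 of 10 controls lay above the highest stressed library, and in males 2 of 9 stressed libraries lay above the highest control.

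**Figure D1:**
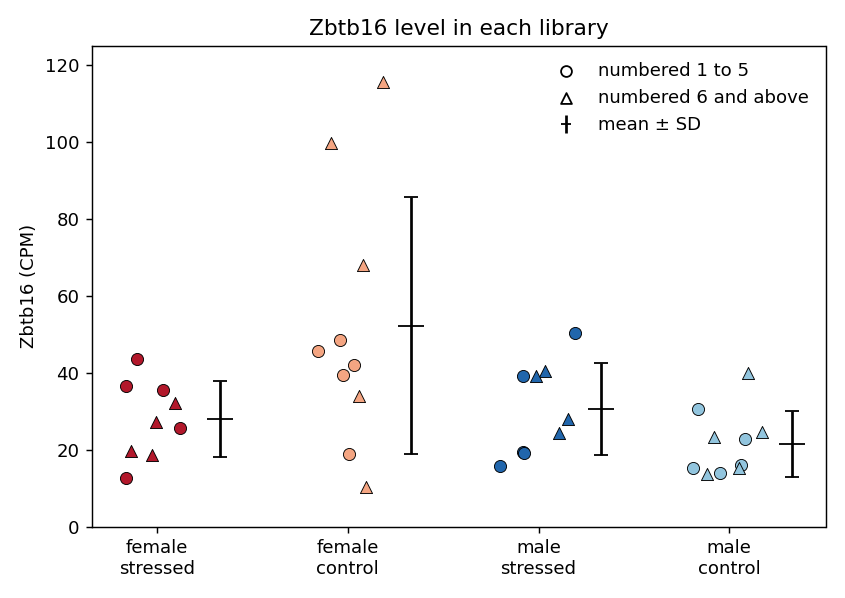
Zbtb16 level (CPM, linear axis) in each library of the 4 groups, with circles for libraries numbered 1 to 5, triangles for those numbered 6 and above, and the mean ± SD beside each group. Control females spread from 10.4 to 115.7 CPM, and stressed females stay at or below 43.5 CPM.

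By group means the order was control females (52.2 ± 33.4 CPM, SD, n = 10), stressed males (30.6 ± 12.001 CPM, n = 9), stressed females (27.9 ± 9.90 CPM, n = 9) and control males (21.6 ± 8.58 CPM, n = 10). Each neighbour in this order lay within 1 SD of the more variable of the pair. The high mean of control females leaned on libraries 7 and 8, at 115.7 and 99.7 CPM, while library 6, at 10.4 CPM, was the lowest of all 38. Without libraries 7 and 8 the control females averaged 38.4 ± 17.9 CPM (n = 8).

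Within groups Zbtb16 was among the more variable genes of its abundance. The pooled within-group SD of its log2 CPM was 0.72, against a median of 0.34 over the genes tested. It was larger than that of 98.5% of 2617 genes within 0.5 log2 CPM of its level. The SD was 0.56 in stressed females, 1.04 in control females, 0.59 in stressed males and 0.53 in control males.

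Stressed females held less Zbtb16 than control females on average, by a log2 change of -0.90 ± 0.30 (SE), or 0.534 of the control level, with a 95% interval from -1.52 to -0.29. EdgeR's quasi-likelihood test called 0 of 16309 genes in this comparison at an adjusted p under 0.05, a background of 0%, and DESeq2 and limma voom also called 0; edgeR had 308 genes at an unadjusted p under 0.05. Zbtb16 therefore did not pass. The difference was -0.33 ± 0.34 in libraries numbered 1 to 5 and -1.43 ± 0.46 in those numbered 6 and above. Without female control 7 and 8, an omission chosen after seeing the data, it was -0.46 ± 0.28, and without the 5 libraries that stood apart -1.06 ± 0.30.

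Both number sets placed the stressed females lower, by different amounts. In libraries numbered 1 to 5 stressed females averaged 30.8 ± 11.96 CPM (n = 5), against 38.9 ± 11.7 CPM in control females (n = 5). In libraries numbered 6 and above stressed females averaged 24.4 ± 6.39 CPM (n = 4), against 65.6 ± 44.0 CPM in control females (n = 5). The last group holds libraries 6, 7 and 8, the lowest and the 2 highest of the control females.

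In males the direction was the other way. Stressed males held more Zbtb16 than control males on average, with a log2 change of 0.51 ± 0.30 and a 95% interval from -0.10 to 1.11. EdgeR, DESeq2 and voom called 0 genes (0%), and edgeR had 655 at an unadjusted p under 0.05. The difference was 0.55 ± 0.35 in libraries numbered 1 to 5 and 0.50 ± 0.44 in those numbered 6 and above. It was 0.46 ± 0.27 without the 5 libraries that stood apart.

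The stress difference in males minus that in females, the interaction, was 1.41 ± 0.42 on the log2 scale for Zbtb16, with a 95% interval from 0.55 to 2.27. EdgeR, DESeq2 and voom called 0 genes for the interaction (0%), and edgeR had 736 at an unadjusted p under 0.05. The value was 0.87 ± 0.49 and 1.93 ± 0.64 in the lower and higher number sets. It was 0.97 ± 0.39 without female control 7 and 8, and 1.53 ± 0.40 without the 5 libraries that stood apart. Averaged over the sexes the opposite signs nearly cancelled, to -0.20 ± 0.21, again with 0 genes called (0%) by edgeR, DESeq2 and voom and 239 at an unadjusted p under 0.05 in edgeR. Without the 5 libraries that stood apart the average was -0.30 ± 0.20.

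**Figure D2:**
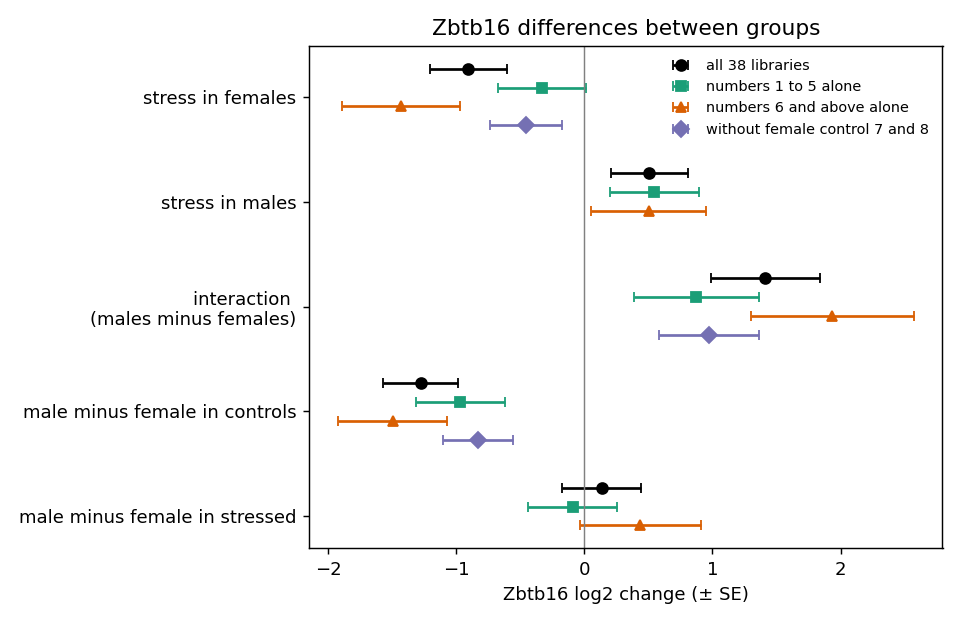
Log2 change of Zbtb16 ± SE from edgeR for 5 comparisons, over all 38 libraries, within each number set and without female control 7 and 8 (the males-only and stressed-only comparisons do not use those libraries). The difference in females runs from -0.33 to -1.43 between the number sets, and that in males lies near 0.5 in both.

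Control males held less Zbtb16 than control females, with a log2 change of -1.28 ± 0.30, or 0.413 of the female level. EdgeR called 11 genes here (0.0674%), and Zbtb16 was not among them (adjusted p = 0.0926 over all genes). DESeq2 gave it an adjusted p of 0.00812 and voom 0.0761. The difference was -0.97 ± 0.35 and -1.496 ± 0.43 in the lower and higher number sets, and -0.83 ± 0.27 without female control 7 and 8. Without the 5 libraries that stood apart it was -1.39 ± 0.28, with an adjusted p of 0.0231 in edgeR. It also passed in edgeR without female control 3 (adjusted p = 0.0450), female control 6 (0.0134) or male control 10 (0.0391). It did not pass in edgeR in numbers 1 to 5 (adjusted p = 0.9997), in numbers 6 and above (0.7525) or without female control 7 and 8 (0.9998). Nor did it without female control 7 (0.3558) or 8 (0.3628) alone, or with the replicate number as a block (0.2691). Zbtb16 was chosen by its values in these same libraries, so none of these adjusted p values is support for the difference. They show only how the call moved with the libraries and method used.

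Stressed males and stressed females were close. Their Zbtb16 difference was 0.13 ± 0.31, males minus females, with a 95% interval from -0.49 to 0.76. Without the 5 libraries that stood apart it was 0.14 ± 0.29. EdgeR called 14 genes in this comparison (0.0858%), none of which was Zbtb16. The sign differed between the number sets, at -0.09 ± 0.34 and 0.44 ± 0.47.

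The genes that followed Zbtb16 from library to library within a group were found by Pearson's r on log2 CPM, after the mean of each group and number set was subtracted from every gene. These values rank all 16308 other tested genes against Zbtb16, so they are a description, with no p; the 38 libraries share the same dissection, preparation and normalisation. The median r of all genes was 0.03, and 52.2% were above 0. At r of 0.7 or more there were 11 genes, and at -0.7 or less 0. Taking named genes with 1 sign of r in all 4 groups and both number sets, the 10 highest were Hif3a, Kcnn2, Plin4, Sntn, Fkbp5, Map3k19, P4ha2, Lrrc34, Stab2 and A3galt2.

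The nearest was Hif3a, a hypoxia-inducible factor subunit, with r = 0.85 (Spearman's rho 0.78). Its r was 0.94 in stressed females, 0.93 in control females, 0.73 in stressed males and 0.81 in control males. Kcnn2, the calcium-activated potassium channel SK2, had r = 0.84 (rho 0.81) and from 0.78 to 0.90 in the groups. Plin4, a coat protein of lipid droplets, had r = 0.82 (rho 0.73) and from 0.60 to 0.89 in the groups. In libraries numbered 1 to 5 and in those numbered 6 and above, r was 0.87 and 0.84 for Hif3a, 0.69 and 0.93 for Kcnn2, and 0.68 and 0.90 for Plin4. These 3 genes were thus high and low in largely the same libraries as Zbtb16 in every group.

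Fkbp5, the co-chaperone that lowers the hormone affinity of the glucocorticoid receptor and is itself induced by glucocorticoids, had r = 0.74 (rho 0.73). Its r was 0.86 in stressed females, 0.86 in control females and 0.84 in stressed males, but 0.15 in control males. Stab2, a scavenger receptor, had r = 0.72 (rho 0.72), and P4ha2, a collagen prolyl hydroxylase subunit, had r = 0.72 (rho 0.60). Sntn, a protein of ciliary tips, had r = 0.75 with rho 0.59. Lrrc34 and A3galt2, both near 1 CPM, had rho of 0.45 and 0.47 beside r of 0.72 and 0.71. For both, the rank measure was well below r, whereas for Stab2, at 2.64 CPM, they were equal to 2 decimals.

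The highest libraries are described here in CPM. The genes were chosen for a high r over these same libraries, so their values there are no further support. Female control 7 and 8 held 39.7 and 30.02 CPM of Hif3a, against 5.29 to 19.995 CPM in the other 8 control females. They held 59.4 and 31.2 CPM of Plin4 (others 2.64 to 14.9), 32.7 and 31.2 of Kcnn2 (others 12.6 to 28.6) and 56.0 and 59.0 of Fkbp5 (others 25.7 to 44.2). In these 4 genes both libraries lay above the other control females, as they did for Zbtb16. Of the 10 genes, P4ha2 and A3galt2 differed in this: library 7 held 21.84 CPM of P4ha2, against up to 21.88 in the others, and 1.11 CPM of A3galt2, against up to 1.26.

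**Figure D3:**
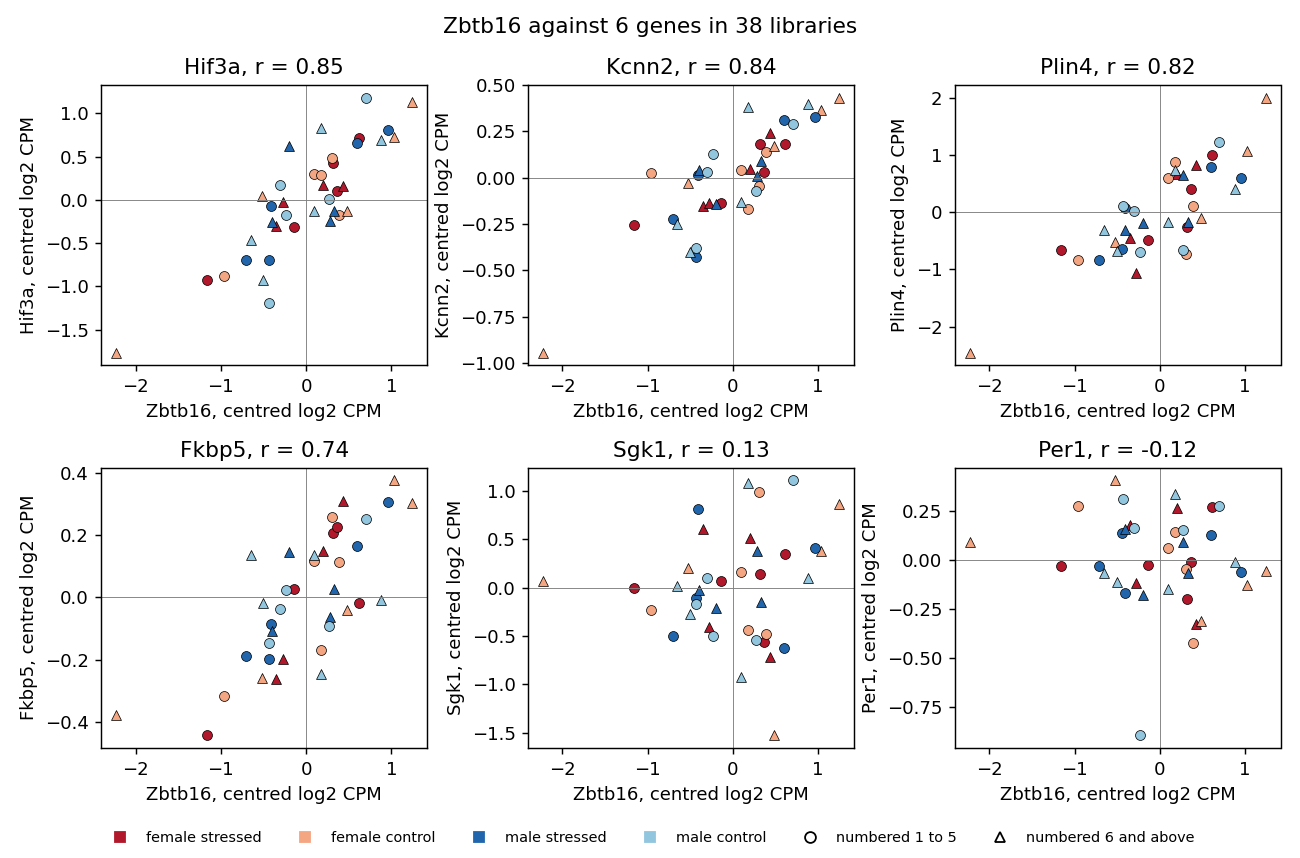
Zbtb16 (x axis) against Hif3a, Kcnn2, Plin4, Fkbp5, Sgk1 and Per1 (y axes) in 38 libraries, as log2 CPM with the mean of each group and number set subtracted. Points follow a rising line for the first 4 genes, and show no such order for Sgk1 (r = 0.13) and Per1 (r = -0.12).

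The libraries farthest from the median of Zbtb16 after centring were female control 6 and female stressed 1, both low. Without them r was 0.77 for Hif3a, 0.74 for Kcnn2, 0.73 for Plin4 and 0.67 for Fkbp5. It was 0.31 for A3galt2, 0.40 for Lrrc34 and 0.47 for P4ha2, which leaned on these libraries most, and 0.53 for Map3k19, 0.57 for Sntn and 0.58 for Stab2. Without the 5 libraries that stood apart the values were 0.77, 0.74, 0.79 and 0.69 for Hif3a, Kcnn2, Plin4 and Fkbp5, and 0.29 for A3galt2.

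On the negative side the 6 lowest were Oacyl, Ica1, Phf13, Cstad, Sp7 and Map3k14, with r from -0.70 to -0.66. Phf13, a chromatin reader of histone methylation, had r = -0.67 (rho -0.64), and -0.60 without the 2 farthest libraries. Ica1 had r = -0.68 but rho -0.44, and r = -0.33 without those libraries. Map3k14, the kinase of non-canonical NF-kB signalling, had r = -0.66, and -0.42 without them.

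Group differences of Plin4, Hif3a, Kcnn2 and Fkbp5 are set beside those of Zbtb16. Stressed minus control in females was -0.88 ± 0.40 for Plin4, -0.29 ± 0.30 for Hif3a, -0.26 ± 0.13 for Kcnn2 and -0.16 ± 0.13 for Fkbp5. In males the values were 0.46 ± 0.40, 0.52 ± 0.30, 0.13 ± 0.13 and -0.00 ± 0.12 in the same order. Male minus female in controls was -1.64 ± 0.40 for Plin4 and -1.11 ± 0.29 for Hif3a, beside 0.02 ± 0.12 for Fkbp5. None of the 10 passed edgeR's test in these comparisons, which share libraries with each other. Over all genes 0% passed for stress in either sex and 0.0674% for male minus female in controls.

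**Figure D4:**
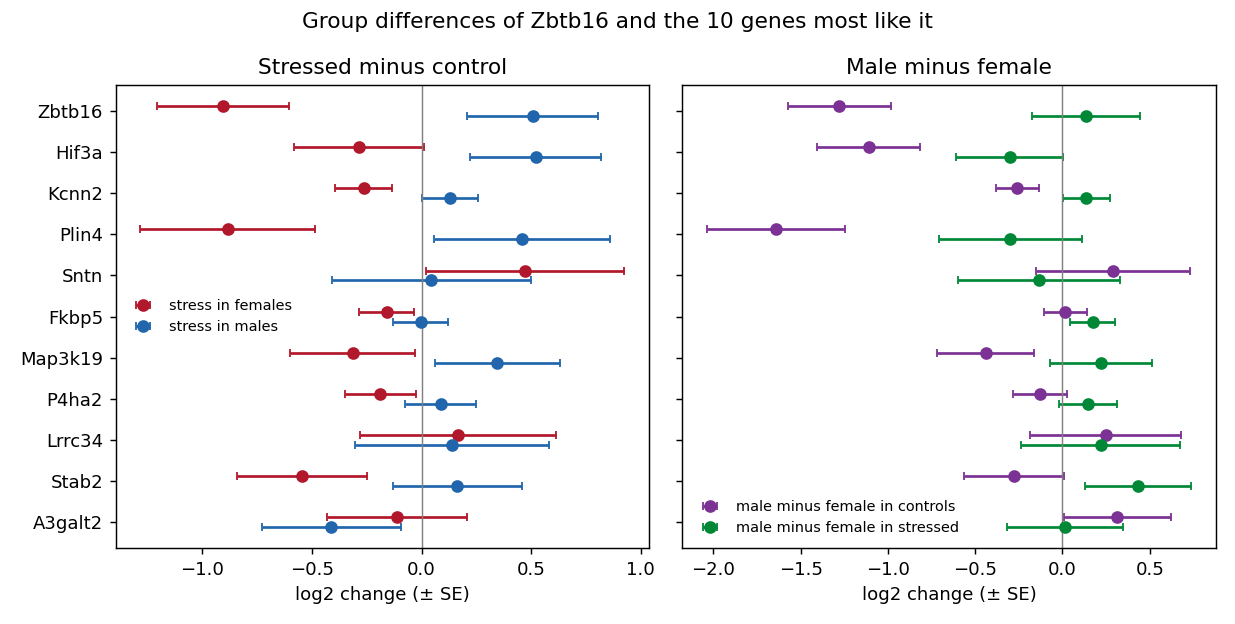
Log2 change ± SE of Zbtb16 and the 10 genes with the highest r, for stressed minus control in each sex (left) and male minus female in each treatment (right). Zbtb16, Plin4 and Hif3a lie furthest below 0 for male minus female in controls, at -1.28, -1.64 and -1.11, and Fkbp5 lies near 0.

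Levels of these genes in CPM show the spread behind the changes. Plin4 ran from 4.24 to 15.9 CPM (median 6.51) in stressed females, against 2.64 to 59.4 CPM (median 11.3) in control females. It ran from 3.71 to 11.7 CPM (median 5.94) in stressed males, against 2.26 to 9.87 CPM (median 4.36) in control males. Hif3a ran from 6.98 to 21.9 CPM (median 15.8) in stressed females, against 5.29 to 39.7 CPM (median 17.5) in control females. It ran from 6.55 to 19.5 CPM (median 10.7) in stressed males, against 2.52 to 16.7 CPM (median 6.69) in control males. All 4 pairs of ranges overlapped.

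Glucocorticoid-induced genes as a list did not follow Zbtb16 as one block. Of 30 listed genes 29 were tested, 17 of them with r above 0, and the list's median r was 0.13 beside 0.03 over all genes. Besides Hif3a and Fkbp5, high values belonged to the sulfotransferase Sult1a1 (0.63), the astrocyte connexin Gjb6 (0.59) and the dexamethasone-induced GTPase Rasd1 (0.43). In control males r was -0.25 for Sult1a1 and -0.03 for Gjb6. The lowest was the GTPase Rhob, at -0.46, which had 0.62 in stressed males, -0.01 in libraries numbered 1 to 5 and -0.80 in those numbered 6 and above. Tsc22d3, which encodes the anti-inflammatory protein GILZ, had 0.38, the kinase Sgk1 0.13 and the clock gene Per1 -0.12.

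The list's median log2 change was -0.10 for stress in females with 22 of 29 members below 0, and -0.07 in males with 19 below 0, beside medians of 0.01 and -0.02 over all genes. Of all 16309 genes, 7564 lay below 0 for stress in females and 8965 for stress in males. For male minus female in controls the median was -0.30 with 25 of 29 below 0, beside 0.00 over all genes with 8068 of 16309 below 0. Tsc22d3 gave -0.59 ± 0.16 and Sgk1 -0.72 ± 0.28 there. In each of these comparisons and in the interaction, 0 of the 29 were called, higher or lower. Over all 16309 genes, 0 were called for either stress comparison or the interaction, and 11 (0.0674%) for male minus female in controls.

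Nr3c1, the glucocorticoid receptor that carries the hormone signal, had r = 0.31 with Zbtb16, but -0.28 in stressed males and 0.63 in libraries numbered 6 and above against -0.00 in those numbered 1 to 5. It stood at 125.2 ± 20.4 CPM in stressed females, 120.9 ± 18.9 in control females, 130.7 ± 11.8 in stressed males and 116.7 ± 25.6 in control males. Nr3c2, the mineralocorticoid receptor, had r = 0.15. Of 12 receptors, chaperones and coactivators, 9 had r above 0, with a median of 0.20, led by the coactivator Ncoa2 (0.42) and the chaperone Hsp90aa1 (0.39). In libraries numbered 1 to 5 these stood at 0.20 and 0.15, and in those numbered 6 and above at 0.72 and 0.73. None of the 12 was called for stress in females, stress in males, the interaction or male minus female in controls. Over all genes the shares called there were 0%, 0%, 0% and 0.0674%.

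Among 15 partners and corepressors of PLZF, 11 had r above 0 and the median was 0.10. The class II histone deacetylase Hdac4 had the highest value, 0.54 (rho 0.32), and the class I deacetylase Hdac1 the lowest, -0.53 (rho -0.40). Both values rested on control females, where r was 0.89 for Hdac4 and -0.89 for Hdac1. In the other groups Hdac4 had 0.12 to 0.23 and Hdac1 -0.41 to 0.10. In libraries numbered 1 to 5 they had 0.17 and -0.10, and in those numbered 6 and above 0.73 and -0.76. The corepressor Ncor1 had 0.39, the ubiquitin ligase scaffold Cul3, which binds BTB proteins, 0.37, the renin receptor Atp6ap2 0.35 and the corepressor Ctbp1 -0.40. In libraries numbered 1 to 5 these 4 lay between 0.02 and 0.14. Hdac4 gave -0.19 ± 0.10 for stress in females, 0.11 ± 0.10 in males and -0.31 ± 0.10 for male minus female in controls. None of the 15 was called in these comparisons or in the interaction, where at most 0.0674% of all genes were.

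The other BTB zinc-finger genes did not move as a family with Zbtb16. Of 44 tested, 21 had r above 0, and the median was -0.06. The extremes were Zbtb14 (0.45), Zbtb33, the methyl-DNA binding protein Kaiso (0.44), and Zbtb6 (0.43) on one side, and Zbtb22 (-0.49), Zbtb48 (-0.45) and Zbtb25 (-0.42) on the other. In libraries numbered 1 to 5 these 6 lay between -0.25 and 0.17. Stress in females gave 24 of 44 below 0 with a median of -0.02, beside 7564 of all 16309 genes below 0. Stress in males gave 17 of 44 below 0 with a median of 0.05, beside 8965 of all genes. None of the 44 was called in either, nor was any of the 16309 genes.

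Markers of some cell types and neighbouring regions moved with Zbtb16 within groups. All 8 ependymal markers, genes of the ciliated lining of the ventricles, had r above 0, with a median of 0.39, and their centred mean had r = 0.51 with Zbtb16. Their summed level ran from 39.4 to 158.6 CPM in stressed females, 25.4 to 150.8 in control females, 46.9 to 159.9 in stressed males and 33.8 to 191.9 in control males. All 8 were detected. The log2 of that summed level, centred in the same way, had r = 0.37 with Zbtb16. The list's median difference was 0.22 for stress in females with 0 of 8 below 0, -0.13 for stress in males with 6 below 0 and 0.35 for male minus female in controls with 1 below 0, signs opposite to those of Zbtb16. Of all 16309 genes, 7564, 8965 and 8068 lay below 0 in these comparisons. None of the 8 was called in them, where 0%, 0% and 0.0674% of all genes were. With the centred mean of the ependymal markers regressed out of every gene, a step added after seeing the data, r was 0.80 for Hif3a, 0.82 for Kcnn2, 0.75 for Plin4, 0.71 for Fkbp5 and 0.69 for Sntn.

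In the opposite direction, 8 of 8 striatal projection neuron markers had r below 0 (median -0.27), led by the adenosine receptor Adora2a at -0.56. Of 10 oligodendrocyte markers 9 were below 0 (median -0.29). Septal markers went the way of the ependymal ones, with 3 of 5 above 0 (median 0.42) and a centred mean at r = 0.41. The centred means of the fibroblast and mural list (0.40) and the thalamic and hypothalamic list (0.39) were also above 0. So was that of the BNST and GABA neuron list (0.32, with 7 of 10 members above 0). The log2 of the summed level, centred in the same way, gave lower r for these lists. It was 0.12 for septal, 0.04 for fibroblast and mural, 0.05 for thalamic and hypothalamic, and 0.23 for BNST and GABA neuron markers. Summed striatal markers ran from 1234 to 4778 CPM in stressed females, 1299 to 4171 in control females, 759 to 2512 in stressed males and 965 to 4261 in control males. Summed oligodendrocyte markers ran from 4643 to 26069 CPM in stressed females, 4740 to 23848 in control females, 4817 to 15568 in stressed males and 4653 to 21760 in control males. Astrocyte markers were split, from Gjb6 (0.59), Aqp4 (0.58) and Gja1 (0.53) to S100b (-0.36), with a median of 0.07. The median of the endothelial markers had Zbtb16's sign in the 4 group comparisons that were computed for lists. Their median was -0.18 for stress in females with 9 of 10 below 0, 0.22 in males with 2 below 0, 0.44 for the interaction with 0 below 0 and -0.21 for male minus female in controls with 10 below 0. Their r with Zbtb16 within groups had a median of 0.03, with 6 of 10 above 0, and their summed level ran from 188 to 311 CPM in stressed females, 222 to 364 in control females, 220.3 to 367 in stressed males and 177 to 337 in control males. The medians of the thalamic and hypothalamic list (-0.18, 0.15, 0.26 and -0.07) and of the cortical list (-0.29, 0.06, 0.35 and -0.24) had the same signs in those 4 comparisons. The 4 share libraries, and the interaction is the male stress difference minus the female one, so their signs are not separate results. No endothelial, thalamic, hypothalamic or cortical marker was called in any of them, where 0%, 0%, 0% and 0.0674% of all genes were. Of all 16309 genes, 7564, 8965, 9101 and 8068 lay below 0 there. The part of tissue composition in the level of Zbtb16 was not tested.

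**Figure D5:**
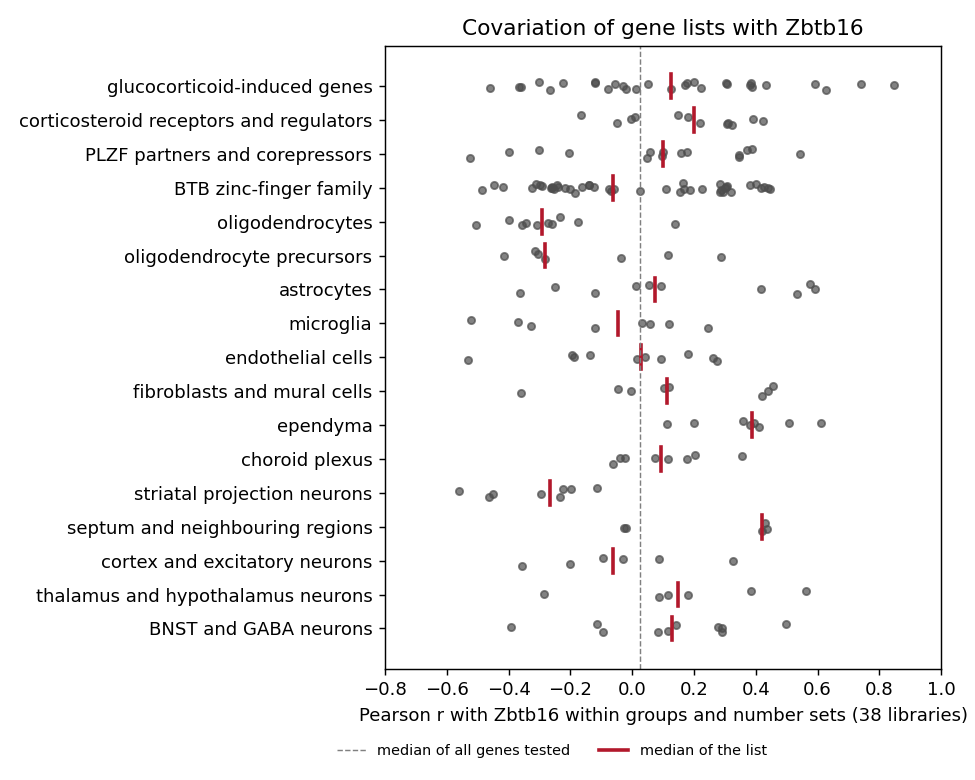
Pearson r with Zbtb16 (x axis) of every tested member of 17 gene lists (rows), each point a gene, with the list's median in red and the median of all genes as a dashed line. Ependymal markers lie to the right (median 0.39), and the septal median is 0.42. Striatal and oligodendrocyte markers lie mostly to the left, and glucocorticoid-induced genes spread from -0.46 to 0.85.

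Library measures were compared with Zbtb16 in the same way. Its centred level had r = 0.46 with the log2 number of genes detected, 0.17 with log2 total counts and -0.28 with the log2 share of the ribosomal RNA precursor Rn45s. With the number of genes detected regressed out, r was 0.81 for Hif3a, 0.80 for Kcnn2, 0.78 for Plin4 and 0.68 for Fkbp5.

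Promoters of genes that moved with Zbtb16 were looked at for the glucocorticoid receptor's motif. The RefSeq table for GRCm38.p6 matched 8 of the 10 genes, and held no entry for Zbtb16, Kcnn2 or Map3k19. The windows of 250 bases before to 50 after the start were searched for AGAACA, 1 arm of the response element, which reads TGTTCT on the other strand. It was in 0 of these 8 genes' promoters, against 15.3% of 12715 tested genes and 4 of 27 glucocorticoid-induced genes. The windows of Hif3a (chr7:17062378-17062677, minus strand) and Fkbp5 (chr17:28486100-28486399, minus strand) are shown as the 2 listed glucocorticoid-induced genes nearest to Zbtb16, 5′ to 3′ with the first 50 transcribed bases in capitals.
Hif3a: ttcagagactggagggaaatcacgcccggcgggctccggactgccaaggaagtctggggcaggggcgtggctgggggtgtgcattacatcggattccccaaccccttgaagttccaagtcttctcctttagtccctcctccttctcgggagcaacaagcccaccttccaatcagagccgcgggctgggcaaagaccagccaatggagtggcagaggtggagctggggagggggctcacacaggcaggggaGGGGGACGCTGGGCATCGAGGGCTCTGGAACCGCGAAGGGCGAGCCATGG
Fkbp5: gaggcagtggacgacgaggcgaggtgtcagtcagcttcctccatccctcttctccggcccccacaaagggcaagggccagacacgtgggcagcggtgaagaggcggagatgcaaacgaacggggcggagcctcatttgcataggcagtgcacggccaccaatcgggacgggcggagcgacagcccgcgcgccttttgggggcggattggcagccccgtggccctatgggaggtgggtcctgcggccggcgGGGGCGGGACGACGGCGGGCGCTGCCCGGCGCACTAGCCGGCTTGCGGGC
No match says only that these letters are not in these windows.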

How the data were processed

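Per the labels' protocols, total RNA from adBNST microdissections was extracted with a micro-scale kit, enriched by poly-A pull-down and made into stranded libraries. The deposited values are raw counts per gene symbol, 1 column per library and not scaled, as judged from whole numbers with unequal totals. Per the submitters' processing notes, STAR, featureCounts, DESeq2 and build mm10 were used; versions, annotation and the counting's strand setting were not given in the sources used here. The table had 0 columns of other samples.

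Counts were tested with edgeR 4.0.16 (quasi-likelihood, TMM, filterByExpr by group) on 4 group means over all 38 libraries, the model of sex, condition and interaction that the series states. The filter left 16309 genes. Benjamini-Hochberg adjustment ran over all of them, with 0.05 as threshold. DESeq2 1.42.0 and limma 3.58.1 (voom with quality weights) were alternatives. Covariation used log2 CPM with a prior count of 2. The fit and the covariation were tested on simulated data. The closest libraries within a group differed by 7.93 or more in chi-square per gene, so none was taken for a copy of another. This cannot show that libraries came from separate animals. Each was counted as a separate sample.

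Zbtb16 and the gene lists were chosen with earlier results of these data known. The naming rule took the 10 highest and 6 lowest r among genes of 1 sign in all groups and number sets, passing over unnamed gene models, up to 6 members of each pathway list by size of r, and Fkbp5, Sgk1, Tsc22d3, Per1, Nr3c1 and Nr3c2. Some named genes are left out for length. Other genes were named from marker lists or for their level per length, after their values were seen.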

Additional observations from a re-analysis of the deposited data

Results flagged for a closer look

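In 44 groups of values (Zbtb16 and the 10 genes with the highest r, in 4 groups each), 2 had a library whose gap to its nearest neighbour was unusually large for the group's range. For separate values with a normal distribution, such gaps arise by chance in about 5% of groups. The 10 genes were chosen for moving with Zbtb16, so the 44 groups are not separate and that rate need not hold here. Kcnn2 stood at 12.57 CPM in female control 6, against 23.1 CPM in the next lowest control female. Plin4 stood at 59.39 CPM in female control 7, against 31.2 CPM in the next highest. Zbtb16 itself had no such gap in the 4 groups. It was lowest in female control 6 (10.4 CPM) and highest in female control 7 (115.7 CPM).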

How the results depend on the processing

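For Zbtb16, a number-set term, dropping the low-count filter and scaling by DESeq2's size factors each kept the direction and the side of the threshold in all 6 comparisons. Male minus female in controls was called with DESeq2 (-1.28, adjusted p = 0.00812) and without the 5 libraries that stood apart (-1.39). Stress averaged over the sexes changed sign in numbers 1 to 5 alone (0.11) and without female control 7 and 8 (0.030), and male minus female in stressed with voom (-0.0062) and in numbers 1 to 5 alone (-0.091). The cause was not tested. With the replicate number as a block the values were -0.71 ± 0.31 for stress in females, 0.60 ± 0.31 in males, 1.32 ± 0.44 for the interaction and -1.17 ± 0.31 for male minus female in controls, and no call on Zbtb16 changed. Deviations from the group means of same-numbered pairs had a correlation over 0.1 in 40 of 55 (median 0.23, -0.36 to 0.67). Of 38 libraries 9 correlated best with their own number. Same-numbered libraries always share a number set, so the difference between the sets enters these values. Pairs of unlike number were not computed beside them, so they cannot show whether a number marks a pairing. As the labels do not say that a number marks a shared animal, batch or day, the block was kept as an alternative.

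Leaving out 1 library at a time gave -1.03 to -0.70 for stress in females, 0.40 to 0.66 in males, 1.20 to 1.57 for the interaction, -0.26 to -0.09 averaged over sexes, -1.42 to -1.07 for male minus female in controls (38 fits, called in 3) and 0.02 to 0.24 in stressed. Genes called for male minus female in controls were 11 in edgeR, 21 in DESeq2, 30 in voom, 7 in numbers 1 to 5 and 8 in numbers 6 and above. In stressed mice they were 14, 19, 21, 8 and 6. No gene was called for stress in females, stress in males, their average or the interaction in any of these fits.

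The median r of the 10 genes was 0.73. It was 0.58 without the 2 libraries farthest from the median of Zbtb16, and 0.61 to 0.77 leaving out 1 library at a time, lowest without female control 6. It ranged from 0.61 to 0.85 in the other alternatives. The genes were chosen for a high r of 1 sign in every group and number set, so these values are no check of stability. The SE of a 2-group difference in Zbtb16 was 0.30 to 0.31 on the log2 scale, beside a within-group SD of 0.72, which limits the changes that could be seen.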
